A study of Mus musculus with 12 samples.

Results

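Chemokines and their receptors were described in hearts of mice from the related strains Balb/cJ and Balb/cByJ(∆ACADS), after sham surgery or after transverse aortic constriction (TAC). Genes were taken from the deposited table of all genes by symbol: every Ccl, Ccr, Cxcl or Cxcr gene with a number, and Cx3cl1, Cx3cr1, Xcl1 and Xcr1. This gave 57 of 27179 genes, namely 39 ligands and 18 receptors. The description and tests cover the 26 genes (19 ligands and 7 receptors) with a mean normalized count of at least 10 over the 12 libraries. The other 31 fell under 10, and 5 of these were listed at 0 in every library. Just inside that limit stood Ccl19 and Ccr7, each with a mean of 11, and just outside it stood Cxcr2 with a mean of 9.5.

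The 4 groups of 3 heart libraries were sham Balb/cJ, TAC Balb/cJ, sham Balb/cByJ and TAC Balb/cByJ. TAC narrows the aortic arch and loads the left ventricle with pressure. All mice, controls included, ate a diet with 10 kcal% fat for 4 days before surgery and until hearts were taken 1 week after it. Balb/cByJ carries a germline deletion in Acads, the gene of short-chain acyl-CoA dehydrogenase, in every cell, and the strains may also differ elsewhere in the genome. The labels give no age.

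Chemokines are small secreted or membrane-bound proteins that guide the movement of leukocytes. They are classed as CC, CXC, CX3C or XC by the spacing of their first cysteines, and they act through receptors that couple to inhibitory G proteins on the responding cell. In the heart, Ccr2 marks monocytes and macrophages that arrive from the blood, Cx3cr1 marks monocytes and macrophages more widely, and stromal and endothelial cells make ligands such as Cxcl12 and Cx3cl1.

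Normalized counts summed to between 25161466 and 34157613 per library, and 1 read was worth between 0.809 and 1.179 normalized counts, as estimated from the spacing of the deposited values. The cardiomyocyte genes Myh6, Tnnt2, Actn2, Tnni3 and Ryr2 summed to between 1018337 and 1742855 over the 12 libraries. Acads was 9033, 10928 and 10628 in sham Balb/cJ and 6929, 6234 and 6925 in sham Balb/cByJ, without overlap. After TAC it was 8670, 7252 and 5415 in Balb/cJ and 5674, 5613 and 6697 in Balb/cByJ, and the strains overlapped. Zhx2, whose expression is known to be low in the BALB/cJ strain, lay between 21 and 47 in the 6 Balb/cJ libraries. In Balb/cByJ it lay between 728 and 838 in 5 libraries, whereas the library labelled TAC Balb/cByJ 6 gave 48. That library went against its strain label at Zhx2, so results that rest on TAC Balb/cByJ are also given without it. Ccl28, at counts of only 0 to 17, showed the same pattern (below). Genes of the atria (Myl7, Sln, Myl4, Nppa, Bmp10 and Hamp) varied between and within groups. In Balb/cJ their sum was 8540 to 18595 after sham and 39269 to 150809 after TAC, and in Balb/cByJ it was 3675 to 107889 after sham and 22123 to 226462 after TAC. Nearly all of the sham Balb/cJ sum was Nppa (8401 to 18449), so it hides how low the other atrial genes were there. Myl4 lay at 100 to 133, Myl7 at 6 to 13, Sln at 0 to 8, and Bmp10 and Hamp at 0 to 2. No library outside that group gave less than 518 for Myl4, 237 for Myl7 or 64 for Sln. Bmp10 reached down to 0 in both Balb/cByJ groups as well. Most of the TAC Balb/cJ sum was Nppa too (32183 to 123392), so in Balb/cJ the sums mainly follow this 1 gene.

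In Balb/cJ, 17 of the 26 genes rose after TAC and 0 fell. The limit of 10 was set on a mean that includes the TAC libraries. Cxcl13 and Ccl19, which rose, would fall under it without their TAC Balb/cJ libraries. Over all 14038 genes tested, 15.3% rose and 16.2% fell, and in all 31.5% passed. Among the 17 were the receptors Ccr1, Ccr2, Cx3cr1, Cxcr4 and Cxcr6 and the ligands Ccl2, Ccl6, Ccl7, Ccl8, Ccl9, Ccl12, Ccl19, Cx3cl1, Cxcl1, Cxcl13 and Cxcl16. In Balb/cByJ, 6 of the 26 rose and 0 fell, against 7.81% of all genes that rose, 4.76% that fell and 12.6% that passed in either direction. All 6 had also passed in Balb/cJ, and among them were Ccr2, Cxcr4, Cxcr6, Ccl8 and Cxcl16. The median log2 difference of the 26 was 1.22 in Balb/cJ and 0.76 in Balb/cByJ, and the median of all genes was 0 in both. Tests were made with limma on log2(value + 1), and passing means an adjusted p under 0.1 (Benjamini-Hochberg, over all genes tested). TAC libraries lay above the sham libraries without overlap for 16 of the 26 in Balb/cJ, where 18.8% of all genes did so and 36.9% were apart in either direction, and for 8 in Balb/cByJ, where the shares were 16.4% and 35.3%. Without the library labelled TAC Balb/cByJ 6, the Balb/cByJ median of the 26 was 0.55, and 14 were apart and higher among the fewer libraries left, where 22.8% of all genes were.

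The counts depended on single libraries. Without TAC Balb/cJ 6, 11 of the 26 passed in Balb/cJ. In Balb/cByJ, 4 passed without the library labelled TAC Balb/cByJ 6 (Cxcr4, Cxcr6 and Ccl8 among them), 3 without TAC Balb/cByJ 5, 1 without TAC Balb/cByJ 4, and 0 without sham Balb/cByJ 1 or without sham Balb/cByJ 3. Calls over all genes fell at the same settings: from 4419 to 2156 in Balb/cJ without TAC Balb/cJ 6, and from 1765 in Balb/cByJ to 687, 469, 515, 6 and 75 in the order just given. In Balb/cJ, Cxcl12 passed as lower without sham Balb/cJ 3 (-0.57, adjusted p = 0.0797) and Cxcl14 without TAC Balb/cJ 4 (-0.88, adjusted p = 0.0848). With the atrial genes Myl7, Sln and Myl4 as a covariate, 0 of the 26 and 0 of all genes passed in Balb/cJ. In Balb/cByJ, 4 of the 26 (Ccr2, Cxcr4 and Cxcr6 among them) and 694 of all genes passed. These atrial genes separated sham from TAC in Balb/cJ without overlap (Myl7 at 6 to 13 against 2381 to 15126). The covariate can hardly be told apart from surgery there, so the loss of calls is no result about the 26 genes.

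**Figure D1:**
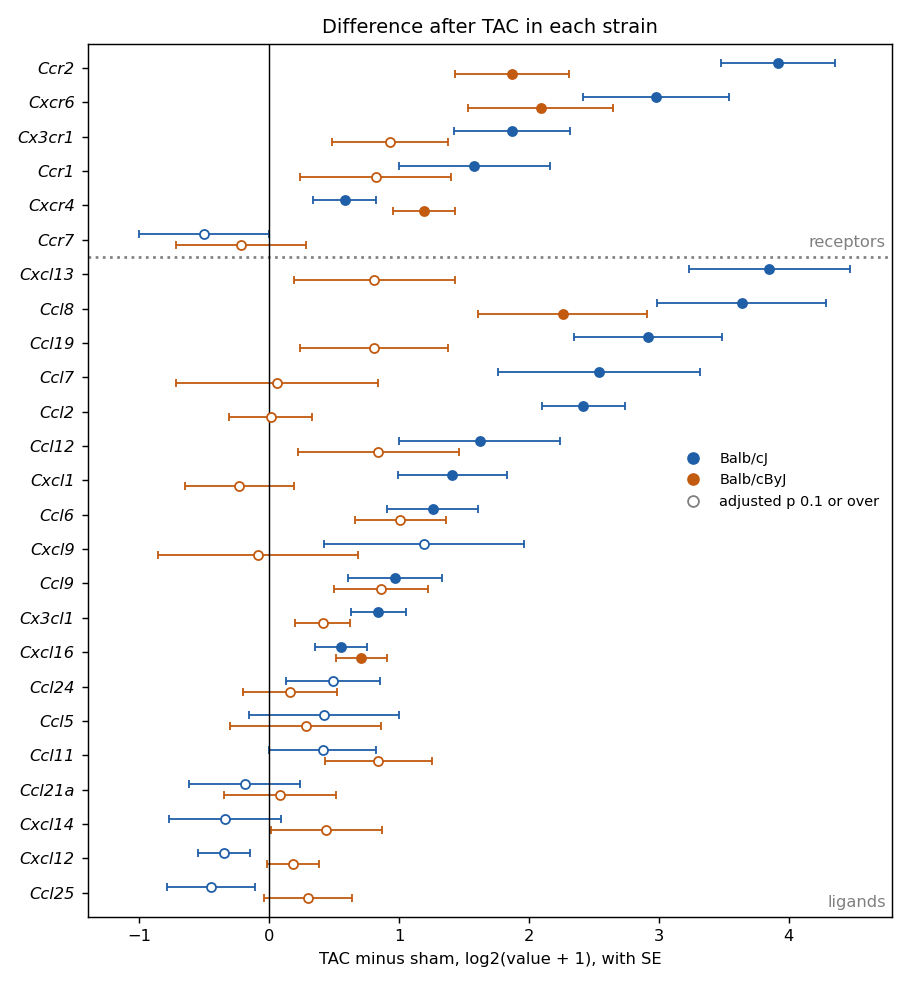
Log2 difference between TAC and sham (log2(value + 1) scale, horizontal axis) with its standard error for the tested genes, all but 1 of the 26 (vertical axis) in Balb/cJ and Balb/cByJ; filled dots mark genes that passed at an adjusted p under 0.1. All filled dots lie to the right of 0, more of them in Balb/cJ than in Balb/cByJ. Ccr2 has the largest difference in Balb/cJ on this scale (3.92), closely followed by Cxcl13 (3.85).

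Most general markers of macrophages rose in the same comparisons, and fewer markers of resident macrophages did. Of 11 macrophage genes, 10 rose after TAC in Balb/cJ and 9 in Balb/cByJ (also 9 without the library labelled TAC Balb/cByJ 6). In Balb/cJ their summed level was 8482 to 12193 after sham and 19594 to 22302 after TAC, and in Balb/cByJ it was 8756 to 15592 after sham and 19822 to 25000 after TAC. Of 4 genes of resident macrophages, 2 rose in Balb/cJ (Folr2 and Cd163) and 1 in Balb/cByJ (Cd163), or 0 without the library labelled TAC Balb/cByJ 6. Lyve1 (0.51 in Balb/cJ and 0.32 in Balb/cByJ) and Timd4 (1.11 and -0.61, or -1.03 without that library) passed in neither strain. Of 3 monocyte genes tested, Fn1 and Plac8 rose in Balb/cJ and Fn1 alone in Balb/cByJ, while Ly6c2 gave -0.03 and 0.12. Fn1 also codes for a matrix protein of fibroblasts, and at 1409 to 13444 in Balb/cJ it made up nearly all of the list's sum, which is therefore not used. Fibroblast genes rose for 5 of 6 in both strains.

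Other tissue markers moved as well. In Balb/cJ, 4 of 4 adipocyte genes tested rose (median 4.86), 5 of 6 mesothelial genes rose (median 3.83), 2 of 3 dendritic cell genes rose (Itgax and Cd209a), and 3 of 5 genes of blood endothelium fell (median -0.58). In Balb/cByJ the counts were 3 of 4 adipocyte genes, 0 of 6 mesothelial genes, 1 of 3 dendritic cell genes and 0 of 5 endothelial genes, and 0, 0, 1 and 0 without the library labelled TAC Balb/cByJ 6. Neutrophil genes passed in neither strain (0 of 3 tested). Genes of T and NK cells (0 of 4 tested passed in either strain) summed over 10 genes to 58 to 76 in Balb/cJ after sham and 68 to 127 after TAC, and to 61 to 82 in Balb/cByJ after sham and 98 to 99 after TAC, none of them at 0 in all libraries. In whole hearts, more cells of a type and more RNA per cell cannot be told apart, and the part of these cell types in the chemokine results was not tested.

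Ccr2, the receptor that draws inflammatory monocytes out of the blood, had the largest log2 difference of the 26 in Balb/cJ on the log2(value + 1) scale. Cxcl13 was close to it (3.85 ± 0.62), and its sham counts were so low that the order of the 2 depends on the value added. Its gene lies at chr9:124102183-124109140 on the plus strand (build mm10). Ccr2 counts were 9, 6 and 5 in sham Balb/cJ, 90, 69 and 230 in TAC Balb/cJ, 28, 43 and 20 in sham Balb/cByJ, and 141, 72 and 125 in TAC Balb/cByJ. TAC libraries lay above the sham libraries in both strains without overlap, and every sham Balb/cByJ library lay above every sham Balb/cJ library. The log2 difference was 3.92 ± 0.44 (SE, n = 3 against 3) in Balb/cJ, with an adjusted p of 0.00123 by limma, a 15.2-fold difference on the log2(value + 1) scale. In Balb/cByJ it was 1.87 ± 0.44 (adjusted p = 0.0435). Without the library labelled TAC Balb/cByJ 6 it was 1.77 and no longer passed (adjusted p = 0.101). The Balb/cByJ call was also lost without sham Balb/cByJ 1, sham Balb/cByJ 3 or TAC Balb/cByJ 4 (adjusted p up to 0.197), while the Balb/cJ call held without any one library (log2 difference 3.41 to 4.28).

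The promoter of Ccr2 is shown with those of Ccl12, Ccl8 and Cxcl1, which also rose in Balb/cJ: Ccl12 is a ligand of Ccr2, Ccl8 is a neighbour of Ccl12, and Cxcl1 is a ligand of another receptor class. Each window runs from 250 bases before to 50 bases after the start of the gene, 5′ to 3′, from RefSeq on GRCm38.p6 (the assembly of mm10), and all 4 genes lie on the plus strand. The windows are chr9:124101933-124102232 (Ccr2), chr11:82101595-82101894 (Ccl12), chr11:82114935-82115234 (Ccl8) and chr5:90890995-90891294 (Cxcl1). Capitals mark matches to 3 short motifs searched on both strands: the NF-kB core GGANNTTCC, the core of the interferon-stimulated response element GAAANNGAA, and the interferon-gamma-activated site GAS, TTCNNNGAA.
Ccr2: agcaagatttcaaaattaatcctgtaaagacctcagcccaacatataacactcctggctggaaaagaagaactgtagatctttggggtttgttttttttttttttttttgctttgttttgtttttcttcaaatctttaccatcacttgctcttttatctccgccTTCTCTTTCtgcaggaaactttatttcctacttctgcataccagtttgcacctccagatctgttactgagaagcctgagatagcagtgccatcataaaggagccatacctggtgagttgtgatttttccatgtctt
Ccl12: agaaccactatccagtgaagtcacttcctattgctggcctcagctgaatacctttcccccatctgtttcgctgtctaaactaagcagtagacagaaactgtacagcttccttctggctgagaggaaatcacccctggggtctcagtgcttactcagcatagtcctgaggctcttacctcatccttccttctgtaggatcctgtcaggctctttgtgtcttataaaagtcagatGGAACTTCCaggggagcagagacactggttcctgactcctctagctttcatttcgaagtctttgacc
Ccl8: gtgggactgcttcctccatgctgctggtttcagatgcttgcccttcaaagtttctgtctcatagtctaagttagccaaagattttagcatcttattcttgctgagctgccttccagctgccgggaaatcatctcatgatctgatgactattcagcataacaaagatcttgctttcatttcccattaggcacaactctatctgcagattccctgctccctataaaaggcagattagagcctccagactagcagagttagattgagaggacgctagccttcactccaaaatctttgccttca
Cxcl1: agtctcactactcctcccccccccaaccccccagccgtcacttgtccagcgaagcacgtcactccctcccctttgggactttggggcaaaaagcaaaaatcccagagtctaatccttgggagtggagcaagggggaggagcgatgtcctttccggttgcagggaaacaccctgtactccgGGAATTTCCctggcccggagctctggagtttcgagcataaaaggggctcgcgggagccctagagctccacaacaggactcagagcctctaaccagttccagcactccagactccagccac

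The Ccl12 window matched the NF-kB core from position -17 and the Cxcl1 window from position -70, counted from the gene's start. The Ccr2 window matched the interferon-stimulated response element core on the minus strand from position -86, and the Ccl8 window held none of the 3 motifs. Of the 26 genes, 18 had a window in the table. The NF-kB core was found in 2 of these (Ccl12 and Cxcl1) and in 4.26% of all 32851 windows. The interferon-stimulated response element core was found in 4 (Ccl19, Ccr2, Cxcl14 and Cxcl9) and in 8.56% of all windows, and GAS in 1 (Cxcl14) and 8.3%. A match is a run of letters and not a measured binding site.

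Among the ligands of Ccr2, Ccl2 rose in Balb/cJ and did not pass in Balb/cByJ. Ccl2, the main monocyte attractant (chr11:82035577-82037452, plus strand), gave 17, 29 and 16 in sham Balb/cJ, 131, 78 and 133 in TAC Balb/cJ, 33, 45 and 35 in sham Balb/cByJ, and 29, 55 and 33 in TAC Balb/cByJ. Every TAC Balb/cJ library lay above all 9 others, and the Balb/cByJ groups overlapped. Ccl2 rose in Balb/cJ by a log2 difference of 2.42 ± 0.32 (adjusted p = 0.0029), or 5.34-fold. In Balb/cByJ the difference was 0.01 ± 0.32 (adjusted p = 0.99), and 0.10 without the library labelled TAC Balb/cByJ 6. The test of the difference between these effects gave -2.41 ± 0.45 (Balb/cByJ minus Balb/cJ), with an unadjusted p of 0.000162 and an adjusted p of 0.256, and so it did not pass over all genes. It was -2.32 (adjusted p = 0.482) without the library labelled TAC Balb/cByJ 6.

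Ccl7 and Ccl12, which also bind Ccr2, rose in Balb/cJ, with calls that single libraries decided. Ccl7 counts were 2, 12 and 7 in sham Balb/cJ, 37, 17 and 88 in TAC Balb/cJ, 16, 16 and 6 in sham Balb/cByJ, and 4, 12 and 34 in TAC Balb/cByJ. Ccl12, which mice have and humans lack, gave 13, 28 and 12, then 35, 33 and 124, then 14, 20 and 9, and then 10, 31 and 50 in the same order of groups. Both were highest in TAC Balb/cJ 6, and their Balb/cJ groups did not overlap. The log2 differences in Balb/cJ were 2.54 ± 0.78 for Ccl7 (adjusted p = 0.0397) and 1.62 ± 0.62 for Ccl12 (adjusted p = 0.0794). Without TAC Balb/cJ 6, or without sham Balb/cJ 1, neither passed, and Ccl12 did not pass without sham Balb/cJ 3 either (adjusted p up to 0.158 for Ccl7 and 0.301 for Ccl12). In Balb/cByJ neither passed, and their groups overlapped. The Balb/cByJ log2 differences were 0.06 for Ccl7 (adjusted p = 0.968) and 0.84 for Ccl12 (adjusted p = 0.397), and -0.65 and 0.36 without the library labelled TAC Balb/cByJ 6.

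**Figure D2:**
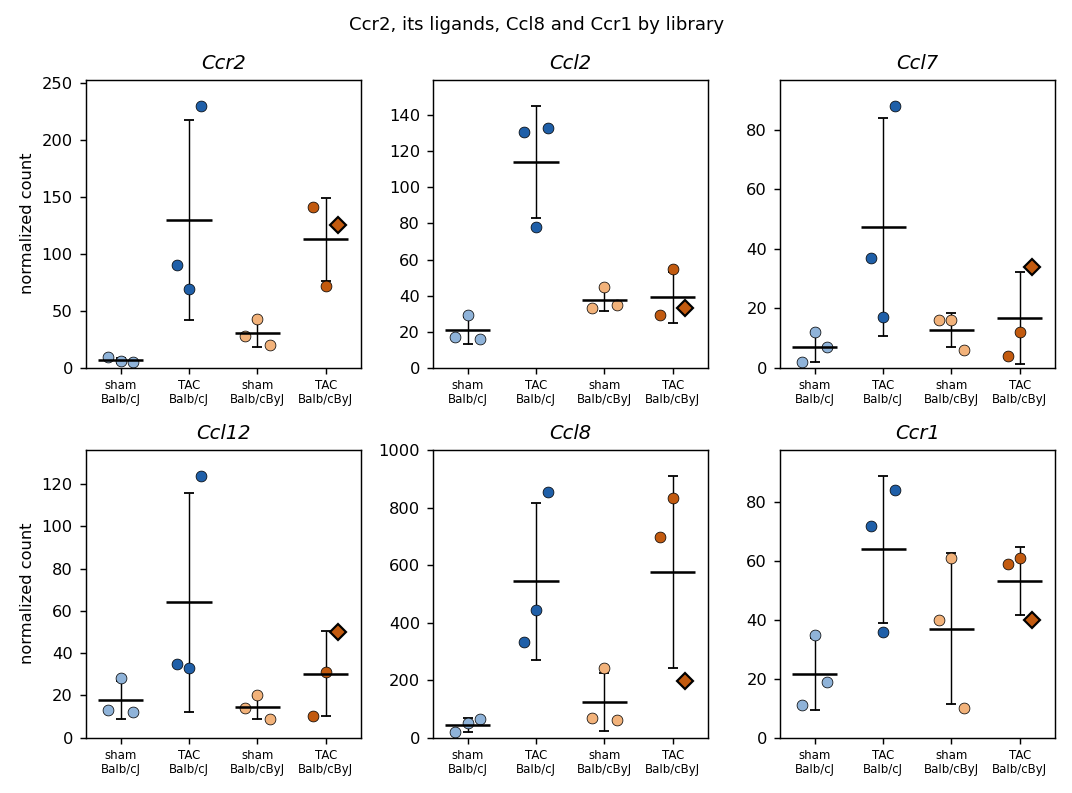
Normalized counts (vertical axes, linear, from 0) of Ccr2, its ligands, Ccl8 and Ccr1 by group (horizontal axis), with a point per library and lines for the group mean and its SD; diamonds mark the library labelled TAC Balb/cByJ 6. Ccr2 is higher after TAC in both strains, whereas the Ccl2 libraries of TAC Balb/cJ (78 to 133) stand above those of TAC Balb/cByJ (29 to 55).

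Ccl8, a CC chemokine that in mice acts mainly through Ccr8, rose in both strains (chr11:82115185-82116799, plus strand). Its counts were 18, 52 and 65 in sham Balb/cJ, 334, 446 and 854 in TAC Balb/cJ, 67, 241 and 63 in sham Balb/cByJ, and 700, 833 and 198 in TAC Balb/cByJ. The Balb/cJ groups were apart, whereas sham Balb/cByJ 2 lay above the library labelled TAC Balb/cByJ 6. Ccl8 rose by 3.64 ± 0.65 on the log2 scale in Balb/cJ (adjusted p = 0.00633, 12.4-fold) and by 2.26 ± 0.65 in Balb/cByJ (adjusted p = 0.0664). The Balb/cByJ value was 2.91 (adjusted p = 0.0535) without the library labelled TAC Balb/cByJ 6. That call was lost without sham Balb/cByJ 1, sham Balb/cByJ 3, TAC Balb/cByJ 4 or TAC Balb/cByJ 5 (adjusted p up to 0.24). Ccr8 was at 0 to 2 in the 12 libraries, too low to test. Ccl2, Ccl7, Ccl11, Ccl12 and Ccl8 lie in this order on chromosome 11, with gaps of 8.3, 10.3, 38.9 and 11.8 kb, and of these 5 neighbours Ccl11 was the member that did not pass in Balb/cJ.

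The inflammatory CC ligands Ccl3, Ccl4 and Ccl5, did not pass or were too low to test. Ccl5, a product of T cells and platelets, passed in neither strain and its groups overlapped (7 to 53 in Balb/cJ and 15 to 30 in Balb/cByJ). Ccl3 and Ccl4 had means under 10, and both were highest in TAC Balb/cJ 6, at 17 and 31.

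Ccr1, a receptor of monocytes and neutrophils, and the myeloid ligands Ccl6 and Ccl9 were led by different libraries. Ccl6 gave 269, 277 and 318 in sham Balb/cJ, 1230, 690 and 382 in TAC Balb/cJ, 313, 481 and 261 in sham Balb/cByJ, and 840, 746 and 511 in TAC Balb/cByJ. Ccl9, 9.2 kb away from it, gave 233, 215 and 307, then 799, 512 and 284, then 300, 377 and 192, and then 639, 597 and 339. TAC Balb/cJ 4 was the highest and TAC Balb/cJ 6 the lowest of its group for both ligands. Ccr1 gave 11, 35 and 19 in sham Balb/cJ, 72, 36 and 84 in TAC Balb/cJ, 40, 61 and 10 in sham Balb/cByJ, and 59, 61 and 40 in TAC Balb/cByJ, so that its order of TAC Balb/cJ libraries was not that of its ligands.

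In Balb/cJ the log2 difference was 1.26 ± 0.35 for Ccl6 (adjusted p = 0.0274), and this call held without any one library. For Ccl9 it was 0.97 ± 0.36 (adjusted p = 0.0714), with overlapping groups, and for Ccr1 it was 1.58 ± 0.58 (adjusted p = 0.0716). The Ccl9 call was lost without replicate 1 or 2 of sham Balb/cJ, or 4 or 5 of TAC Balb/cJ (adjusted p up to 0.213). The Ccr1 call was lost without replicate 1 or 3 of sham Balb/cJ, or 4 or 6 of TAC Balb/cJ (adjusted p up to 0.214). In Balb/cByJ the values were 1.01 ± 0.35 for Ccl6 (adjusted p = 0.102), 0.86 ± 0.36 for Ccl9 (adjusted p = 0.155) and 0.82 ± 0.58 for Ccr1 (adjusted p = 0.381), and 1.22, 1.14 and 1.01 without the library labelled TAC Balb/cByJ 6. None of these 3 passed with or without that library. The Ccl6 groups of Balb/cByJ did not overlap. Ccl6 passed there without TAC Balb/cJ 4 (adjusted p = 0.0517), TAC Balb/cJ 6 (adjusted p = 0.0338) or sham Balb/cByJ 2 (adjusted p = 0.0614). Ccl9 passed in Balb/cByJ without TAC Balb/cJ 6 (adjusted p = 0.0755), a setting at which 2815 of all genes passed, against 1765 with that library.

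Cxcr6, a receptor of T and NK cells, and its membrane-bound ligand Cxcl16 both rose in both strains. Cxcr6 counts were 2, 2 and 4 in sham Balb/cJ, 21, 15 and 62 in TAC Balb/cJ, 15, 9 and 6 in sham Balb/cByJ, and 71, 47 and 24 in TAC Balb/cByJ. The Cxcl16 counts were 386, 310 and 304, then 454, 416 and 603, then 323, 446 and 242, and then 570, 529 and 507 in the same order of groups. TAC and sham libraries of a strain did not overlap for either gene. Cxcr6 rose by 2.98 ± 0.56 on the log2 scale in Balb/cJ (adjusted p = 0.00744) and by 2.09 ± 0.56 in Balb/cByJ (adjusted p = 0.0571). Without the library labelled TAC Balb/cByJ 6 the second value was 2.5 (adjusted p = 0.067), and the call was lost without sham Balb/cByJ 1, sham Balb/cByJ 3, TAC Balb/cByJ 4 or TAC Balb/cByJ 5 (adjusted p up to 0.217). Cxcr6 lies within the span of Fyco1 on the opposite strand, which had a mean count of 11642.58, and their exons share 0 bases.

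Cxcl16 rose by 0.55 ± 0.20 on the log2 scale in Balb/cJ (adjusted p = 0.0701) and by 0.71 ± 0.20 in Balb/cByJ (adjusted p = 0.064). The Balb/cByJ value without the library labelled TAC Balb/cByJ 6 was 0.75 and did not pass (adjusted p = 0.116). The Balb/cByJ call was also lost without sham Balb/cByJ 1, sham Balb/cByJ 3, TAC Balb/cByJ 4 or TAC Balb/cByJ 5 (adjusted p up to 0.24), and the Balb/cJ call without replicate 2 or 3 of sham Balb/cJ or without TAC Balb/cJ 6 (adjusted p up to 0.25). Cxcl16 shares 363 exon bases with Zmynd15 on the opposite strand (mean 58.75), and reads there could not be assigned with certainty because the strand setting of the counting is not known.

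Cxcr4, which holds progenitors and leukocytes near stromal cells, rose while its ligand Cxcl12 did not pass. Cxcr4 counts were 129, 98 and 91 in sham Balb/cJ, 153, 153 and 167 in TAC Balb/cJ, 74, 126 and 74 in sham Balb/cByJ, and 270, 166 and 186 in TAC Balb/cByJ. No TAC library lay below a sham library of its strain. The log2 difference was 0.58 ± 0.24 in Balb/cJ (adjusted p = 0.0955) and 1.19 ± 0.24 in Balb/cByJ (adjusted p = 0.0304). Without the library labelled TAC Balb/cByJ 6 the second value was 1.25 (adjusted p = 0.0548), and it did not pass without sham Balb/cByJ 1 or sham Balb/cByJ 3 (adjusted p up to 0.141). The Balb/cJ call was lost without any of 7 libraries: sham Balb/cJ 2 or 3, TAC Balb/cJ 4, 5 or 6, sham Balb/cByJ 1, or the library labelled TAC Balb/cByJ 6 (adjusted p up to 0.249).

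Per kilobase of exon, the mean level over the 12 libraries was 881 for Ccl21a, 631 for Ccl8, 550 for Cxcl12 and 367 for Ccl6, the highest of the 26, and of the receptors it was highest for Cxcr4 at 77.5. This pools groups that differ: Ccl8 averaged 88.1 per kilobase in sham Balb/cJ, below Ccl21a (741), Cxcl12 (668), Cxcl14 (295) and Ccl6 (201), and 1070 in TAC Balb/cJ. Cxcl12 counts were 5721, 5171 and 3448 in sham Balb/cJ, 3112, 4384 and 3625 in TAC Balb/cJ, 3096, 3303 and 3753 in sham Balb/cByJ, and 3363, 3296 and 4997 in TAC Balb/cByJ. The groups overlapped. The log2 difference was -0.35 ± 0.20 in Balb/cJ (adjusted p = 0.232) and 0.18 ± 0.20 in Balb/cByJ (adjusted p = 0.594), which became -0.02 without the library labelled TAC Balb/cByJ 6. Ackr3, the atypical receptor that removes Cxcl12, passed in neither strain either (log2 difference -0.47 ± 0.21 in Balb/cJ and -0.39 ± 0.21 in Balb/cByJ, or -0.22 without that library).

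Cx3cr1, a receptor of monocytes and resident macrophages, and its ligand Cx3cl1 (fractalkine), which endothelial cells carry on their surface, passed in Balb/cJ. Cx3cr1 counts were 123, 64 and 39 in sham Balb/cJ, 189, 166 and 493 in TAC Balb/cJ, 86, 109 and 82 in sham Balb/cByJ, and 207, 115 and 227 in TAC Balb/cByJ. The Cx3cl1 counts were 346, 298 and 319, then 483, 480 and 817, then 361, 421 and 330, and then 547, 563 and 381 in that order of groups. Both genes were highest of all in TAC Balb/cJ 6, and the Cx3cl1 groups of Balb/cByJ overlapped. In Balb/cJ the log2 difference was 1.87 ± 0.45 for Cx3cr1 (adjusted p = 0.017) and 0.84 ± 0.21 for Cx3cl1 (adjusted p = 0.0184), and neither call was lost without any one library. In Balb/cByJ it was 0.93 ± 0.45 (adjusted p = 0.204) and 0.41 ± 0.21 (adjusted p = 0.224), and 0.75 and 0.59 without the library labelled TAC Balb/cByJ 6. In that strain the Cx3cr1 groups did not overlap, and Cx3cl1 passed without TAC Balb/cJ 6 (adjusted p = 0.0983).

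**Figure D3:**
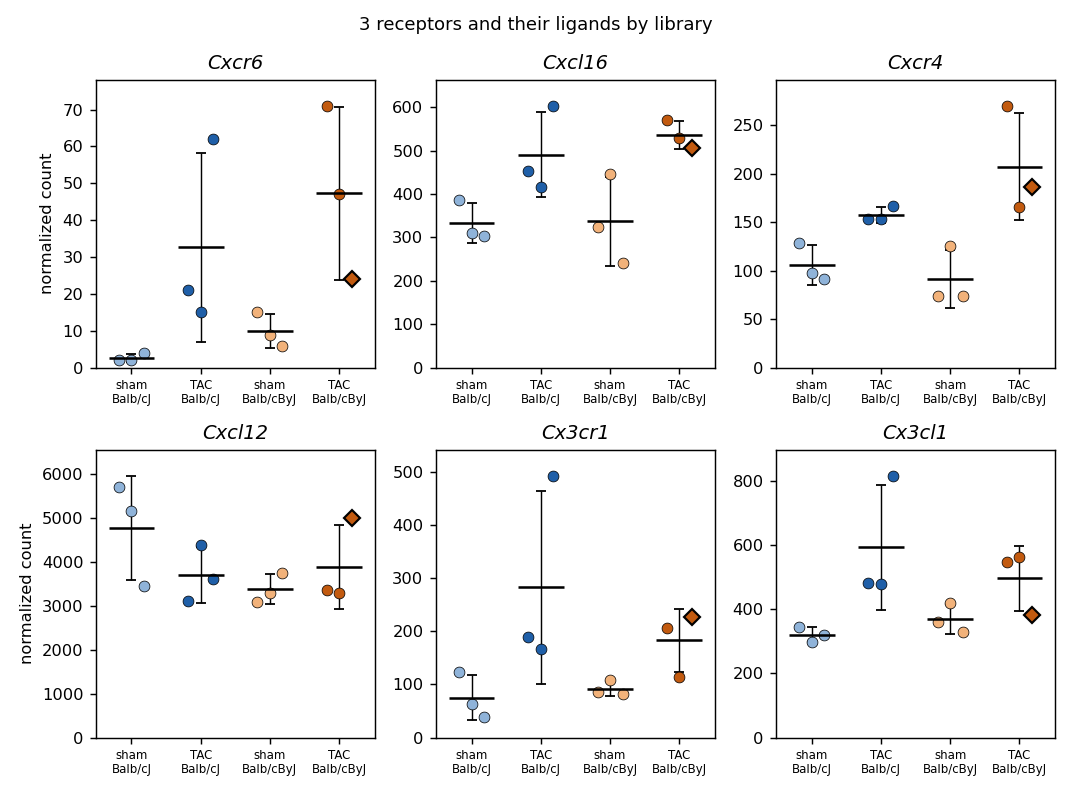
Normalized counts (vertical axes, linear, from 0) of 3 receptors and their ligands by group (horizontal axis), with a point per library and lines for the group mean and its SD; diamonds mark the library labelled TAC Balb/cByJ 6. Cxcr6 and Cxcr4 are higher after TAC in both strains, and the Cxcl12 groups overlap.

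Cxcl13 and Ccl19 were each at 3 or less in sham Balb/cJ hearts. Cxcl13, which draws B cells through Cxcr5, gave 2, 1 and 1 in sham Balb/cJ, 29, 12 and 91 in TAC Balb/cJ, 5, 12 and 9 in sham Balb/cByJ, and 18, 19 and 10 in TAC Balb/cByJ. Ccl19, a ligand of Ccr7 on dendritic cells and T cells, gave 0, 2 and 3, then 15, 11 and 26, then 8, 12 and 6, and then 12, 25 and 12 in the same order. For both genes every other group lay above sham Balb/cJ. In the same order the group means were 1.33, 44, 8.67 and 15.7 for Cxcl13 and 1.67, 17.3, 8.67 and 16.3 for Ccl19. Both genes entered the 26 with the help of TAC Balb/cJ, the group in which they were then called higher. In Balb/cJ, Cxcl13 rose by 3.85 ± 0.62 on the log2 scale (adjusted p = 0.00456) and Ccl19 by 2.92 ± 0.57 (adjusted p = 0.00873), and neither call was lost without any one library. In Balb/cByJ the values were 0.81 ± 0.62 (adjusted p = 0.417) and 0.81 ± 0.57 (adjusted p = 0.378), and 1.08 and 0.97 without the library labelled TAC Balb/cByJ 6.

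The receptors of Cxcl13 and Ccl19, and Ccl21a, did not pass. Cxcr5 had a mean under 10, at 0 to 3 in the 12 libraries. B cell genes summed to between 13 and 43 over 5 genes in the 12 libraries. Ccr7 counts ran from 3 to 12 in Balb/cJ and from 8 to 20 in Balb/cByJ, and passed in no comparison. Ccl21a, made by lymphatic endothelium and bound by Ccr7, ranged from 344 to 1481 with overlapping groups, and its near-identical copies Ccl21b and Ccl21c were listed at 0, so reads that fit several copies make its level uncertain.

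Cxcl1, which draws neutrophils through Cxcr2, rose in Balb/cJ. Its counts were 12, 19 and 10 in sham Balb/cJ, 43, 29 and 40 in TAC Balb/cJ, 11, 42 and 19 in sham Balb/cByJ, and 18, 16 and 19 in TAC Balb/cByJ. The Balb/cJ groups were apart, and sham Balb/cByJ 2 stood above the rest of its group. The log2 difference in Balb/cJ was 1.41 ± 0.42 (adjusted p = 0.0353), which was lost without sham Balb/cJ 3 or TAC Balb/cJ 6 (adjusted p up to 0.114). Cxcr2 was at 5, 41 and 7 in sham Balb/cJ, 14, 19 and 4 in TAC Balb/cJ, 1, 3 and 6 in sham Balb/cByJ, and 8, 2 and 4 in TAC Balb/cByJ. The sham Balb/cJ 2 library that gave 41 also had the highest sum of neutrophil genes, 948 against 90 to 483 in the others.

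The other ligands passed in neither strain, and their TAC and sham groups overlapped in Balb/cJ. Cxcl9, an interferon-gamma-induced ligand of Cxcr3, ran from 6 to 138, with its highest count in TAC Balb/cJ 6, and it passed as higher in Balb/cJ without TAC Balb/cJ 4 (2.10 against 1.19 with it, adjusted p = 0.0411). Ccl11 and Ccl24, the eotaxins that draw eosinophils through Ccr3, ran from 35 to 166 and from 49 to 143. Ccl25, known from thymus and gut, ran from 14 to 35, where thymocyte genes summed to between 0 and 12. Cxcl14 ran from 166 to 901, and TAC Balb/cJ held both its lowest and its highest library, while in Balb/cByJ the TAC libraries (444 to 600) lay above the sham libraries (378 to 421).

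Of the 31 genes with means under 10, Cxcl10, another interferon-induced ligand of Cxcr3, had a mean of 8.08. It gave 6, 1 and 2 in sham Balb/cJ, 8, 8 and 43 in TAC Balb/cJ, 6, 3 and 1 in sham Balb/cByJ, and 8, 2 and 9 in TAC Balb/cByJ. Besides these and Cxcr2, the genes with any reads were Ccl1, Ccl3, Ccl4, Ccl17, Ccl22, Ccl26, Ccl27a, Ccl28, Ccr3, Ccr4, Ccr6, Ccr8, Ccr9, Ccr10, Cxcl2, Cxcl3, Cxcl5, Cxcl11, Cxcl17, Cxcr1, Cxcr3, Cxcr5, Xcl1 and Xcr1, and Ccl20, Ccl21b, Ccl21c, Ccl27b and Cxcl15 were listed at 0 throughout. Ccl28 gave 1, 0 and 1 in sham Balb/cJ and 1, 1 and 0 in TAC Balb/cJ. It gave 5, 9 and 12 in sham Balb/cByJ and 17, 15 and 1 in TAC Balb/cByJ, the 1 in the library labelled TAC Balb/cByJ 6. A heart without reads of a gene at this depth may still hold it at a low level.

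**Figure D4:**
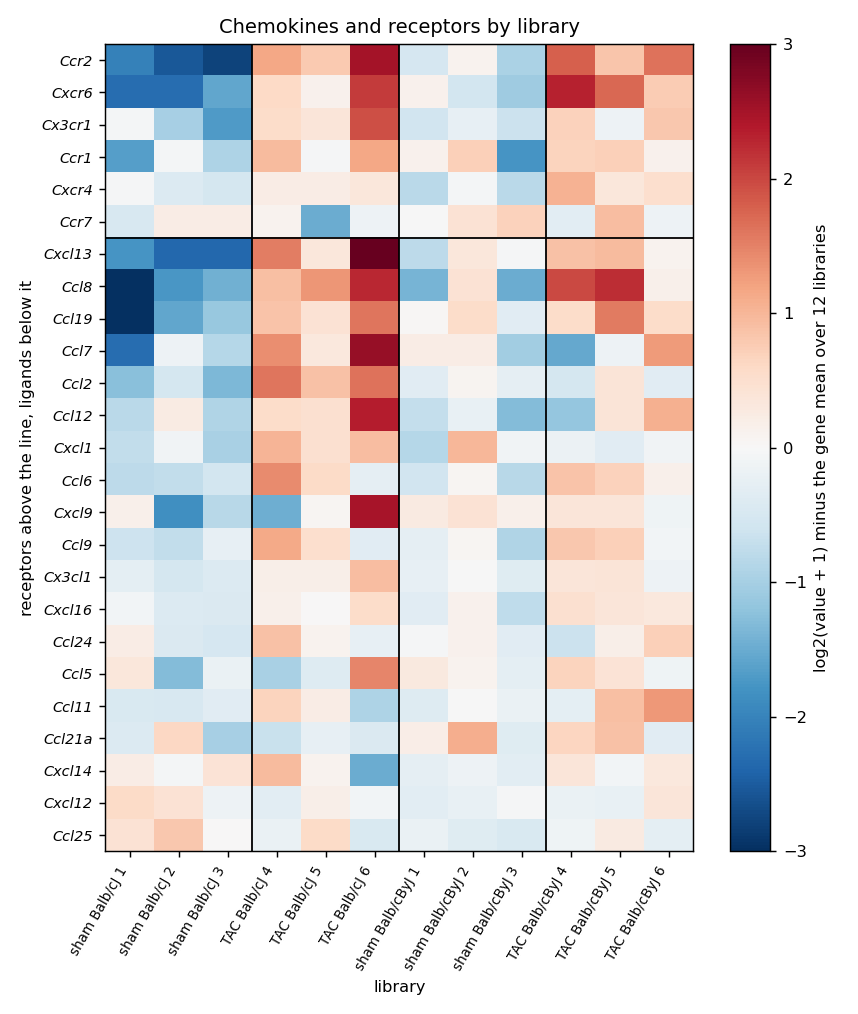
Log2(value + 1) of the tested genes, all but 1 of the 26 (vertical axis), in the 12 libraries (horizontal axis), as colours relative to each gene's mean over all libraries, with the darkest colours standing for a difference of 3 or more. TAC Balb/cJ 6 is the highest library for 14 of the 26 genes.

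Single libraries led many of these genes. TAC Balb/cJ 6 was the highest of the 12 libraries for 14 of the 26 genes and for 16.3% of all genes, and TAC Balb/cJ 4 for 5 of the 26 and 3.55% of all genes. In sham Balb/cByJ, replicate 2 was the highest of its group for 21 of the 26, and for 35% of all genes. That replicate also had the highest sum of its group for macrophage genes (15592 against 10045 and 8756) and for atrial genes (107889 against 28227 and 3675). TAC Balb/cJ 6 had the lowest macrophage sum of its group (19594 against 20815 and 22302). Whether a technical property of these libraries or their mix of tissues plays a part was not tested.

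Strain was compared after each surgery. After sham, Ccr2, Ccl19 and Cxcl13 were higher in Balb/cByJ than in Balb/cJ and 0 were lower, where 4.27% of all genes were higher, 4.1% were lower and 8.37% passed in either direction. The log2 difference was 2.00 ± 0.44 for Ccr2 (adjusted p = 0.0289), 2.03 ± 0.57 for Ccl19 (adjusted p = 0.0689) and 2.01 ± 0.62 for Cxcl13 (adjusted p = 0.0926). The sham libraries of the strains did not overlap for these 3, nor for Cxcr6 (1.55 ± 0.56, adjusted p = 0.132) and Ccl2 (0.87 ± 0.32, adjusted p = 0.138), which did not pass. Ccl25 (-0.76, adjusted p = 0.209) and Cxcl14 (-0.44, adjusted p = 0.587) did not overlap in the other direction, lower in Balb/cByJ, and did not pass. Of all genes, 27.2% did not overlap between the sham groups, 13.4% with Balb/cByJ higher. The Ccr2 call was lost without sham Balb/cJ 2 or sham Balb/cByJ 2 (adjusted p up to 0.115). For Ccl19 the call ended without sham Balb/cJ 1 or 2, or without any sham Balb/cByJ library (adjusted p up to 0.211). Cxcl13 was lost without any of 8 libraries: sham Balb/cJ 2 or 3, TAC Balb/cJ 4, any sham Balb/cByJ library, TAC Balb/cByJ 4 or TAC Balb/cByJ 5 (adjusted p up to 0.258). When each library was left out in turn, between 0 and 4 of the 26 passed, and 0 passed without sham Balb/cJ 2 or without sham Balb/cByJ 2. Cxcr6 passed as higher without TAC Balb/cJ 6 (adjusted p = 0.0769), and Cxcl12 as lower without sham Balb/cJ 3 (-0.69, adjusted p = 0.0812). Over all genes the count of 1175 became 321 without sham Balb/cJ 2 and 411 without sham Balb/cByJ 2.

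Markers of other cell types differed in the same sham comparison. Of 6 mesothelial genes 4 were higher in sham Balb/cByJ (median log2 difference 3.03), with a summed level of 155 to 212 in sham Balb/cJ and 343 to 426 in sham Balb/cByJ. Atrial genes were higher for 4 of 6 (median 5.53). Of the 3 dendritic cell genes tested, Itgax was higher, at 3 to 11 in sham Balb/cJ and 76 to 340 in sham Balb/cByJ (4.21, adjusted p = 0.0144), while Zbtb46 and Cd209a did not pass. Of 11 macrophage genes 0 passed. With the atrial covariate, 0 of the 26 chemokine genes passed in this comparison, and of all genes 35 passed, against 1175 without it. Myl7 was at 6 to 13 in sham Balb/cJ and 237 to 14508 in sham Balb/cByJ, so the covariate can hardly be told apart from strain here. The part of the other cell types was not tested.

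After TAC, 0 of the 26 genes passed between the strains by limma, where 1 of 14038 genes (0.00712%) did. Without the library labelled TAC Balb/cByJ 6, 0.534% of all genes did. An unadjusted p under 0.05 by limma was found for 2 of the 26, and for 1371 of the 14038 genes. Ccl2 was lower in every TAC Balb/cByJ library than in every TAC Balb/cJ library, by a log2 difference of -1.54 ± 0.32 with an unadjusted p of 0.000392 and an adjusted p of 0.169 (-1.45 and 0.171 without the library labelled TAC Balb/cByJ 6). The Cxcl1 libraries did not overlap either (-1.02 ± 0.42, adjusted p = 0.446, and -1.07 without that library). Of all genes, 14.4% did not overlap between the TAC groups, 6.91% with Balb/cByJ higher.

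The test of whether the TAC effect differed between the strains passed for 0 of the 26 genes and for 1 of all genes (0.00712%). An unadjusted p under 0.05 by limma was found for 954 of the 14038 genes, and for 6 of the 26. After Ccl2, these were Cxcl13 (-3.04 ± 0.88, adjusted p = 0.611, -2.77 without the library labelled TAC Balb/cByJ 6), Ccr2 (-2.06 ± 0.62, adjusted p = 0.652, -2.16 without it), Cxcl1 (-1.64 ± 0.59, adjusted p = 0.721, -1.69 without it), Ccl19 (-2.11 ± 0.81, adjusted p = 0.723, -1.94 without it) and Ccl7 (-2.48 ± 1.11, adjusted p = 0.724, -3.19 without it). All 6 were negative, that is, the log2 difference after TAC was larger in Balb/cJ than in Balb/cByJ. These 6 were picked by their unadjusted p, and of the 26 genes 8 had a value above 0. Cxcl13 and Ccl19 reached the limit on the mean only with their TAC Balb/cJ libraries. Such a choice favours a larger difference in Balb/cJ, so their sign is not independent of how they were chosen. The interaction shares its sham libraries with the sham comparison of the strains, where Ccr2, Ccl19 and Cxcl13 were higher in Balb/cByJ.

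The authors' deposited table listed 20 of these genes as changed after TAC in Balb/cJ, all higher, where 21.5% of all genes with an adjusted p were called. The authors' deposited table held the 17 above and also Ccl17, Cxcl10 and Cxcl5, whose means were under 10. In Balb/cByJ, 11 were called in the authors' deposited table, all higher, where 20.4% of all genes were called. These 11 in the authors' deposited table were the 6 above together with Ccl11, Ccl6, Ccl9, Cx3cr1 and Cxcl14.

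Below the receptors, a list of 26 genes for G proteins, their kinases, arrestins and the signalling of leukocyte movement was counted. In Balb/cJ 14 rose and 1 fell, and in Balb/cByJ 8 rose, or 5 without the library labelled TAC Balb/cByJ 6. Of all genes, 15.3% rose and 16.2% fell in Balb/cJ, and 7.81% rose in Balb/cByJ, or 3.97% without that library. The list's median log2 difference was 0.52 and 0.42. In Balb/cJ, Rap1b, a small GTPase of cell adhesion, rose by 0.47 ± 0.08 on the log2 scale (adjusted p = 0.00589). Pik3r5, the regulatory subunit of the leukocyte phosphoinositide 3-kinase, rose by 1.94 ± 0.38 (adjusted p = 0.00873). Arrb2, an arrestin that ends signalling by these receptors, rose by 0.57 ± 0.17 in Balb/cJ (adjusted p = 0.036) and by 0.79 ± 0.17 in Balb/cByJ (adjusted p = 0.0355). Fermt3, which activates integrins in blood cells, gave 0.41 ± 0.19 in Balb/cJ (adjusted p = 0.147) and rose by 0.83 ± 0.19 in Balb/cByJ (adjusted p = 0.0427). Without the library labelled TAC Balb/cByJ 6, the Balb/cByJ values were 0.73 for Arrb2 (adjusted p = 0.0801) and 0.95 for Fermt3 (adjusted p = 0.0565).

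Of 7 atypical receptors and platelet chemokines, 0 passed in Balb/cJ and 2 in Balb/cByJ, where 31.5% and 12.6% of all genes passed. In Balb/cByJ, Ackr1, which carries chemokines across vessel walls, rose by 1.48 ± 0.44 (adjusted p = 0.0697), and Ackr4, which removes Ccl19 and Ccl21, rose by 1.15 ± 0.38 (adjusted p = 0.0885). Without the library labelled TAC Balb/cByJ 6 these values were 1.42 (adjusted p = 0.152) and 1.08 (adjusted p = 0.185), and 0 of the 7 passed. In Balb/cJ, Ackr1 gave 1.00 ± 0.44 (adjusted p = 0.119), with the TAC libraries (23 to 38) above the sham libraries (10 to 22). Ackr4 gave 0.53 ± 0.38 there (adjusted p = 0.324).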

How the data were processed

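RNA of mouse hearts was measured in 12 stranded mRNA libraries by sequencing, per the labels' protocols. Reads were aligned with STAR, counted with featureCounts of Subread and analysed with DESeq2 on build mm10, per the submitters' processing notes. For the tools' versions and the strand setting of the counting: not given in the sources used here. The gene values were deposited as scores: read counts scaled by a factor for each library and rounded by the authors, a reading that rests on the spacing of the values. The authors' log2 fold changes and adjusted p-values for TAC against sham in each strain were deposited in the same table and are quoted only as such.

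Values were taken as log2(value + 1), a scale that understates changes of low genes. Of 20278 genes with any value above 0, the 14038 with a mean of at least 10 were fitted with limma 3.58.1 in R 4.3.3 (a mean per group over all 12 libraries, eBayes with a trend, 8 residual degrees of freedom). No count model was used, because rounded normalized values are not counts. The fit was tested on simulated data. The contrasts (TAC against sham in each strain, the strains after each surgery, and their interaction) were adjusted with the Benjamini-Hochberg method over all genes, and 0.1 was the threshold, after the series' 10% false discovery rate. Genes with a mean of at least 10 are named, except 1 of the 26 that is counted but not reported here, and of other lists up to 4 genes by smallest p. Members and lists were chosen with earlier results of these data known.

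Sham columns carry the numbers of the sample titles, while the TAC columns are numbered 4 to 6 and were assigned by strain and surgery only. Nothing says that libraries of a group came from separate animals, so p-values measure only the spread between these libraries, which may be technical. Alternatives were other pseudocounts, filters, thresholds, scalings, weights, an atrial covariate, a replicate block and leaving out each library. Counting error adds to low values: 1 read is about 1 normalized count. Calculations used Python 3.11.15, numpy 2.4.6 and pandas 2.3.3, and plots matplotlib 3.10.9.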

Additional observations from a re-analysis of the deposited data

How the results depend on the processing

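Counts of the 26 genes that passed kept within 1.5 times of the reported count under no filter, a pseudocount of 0.5, both rescalings and a fit of only the groups compared, for every comparison with calls. With Myl7, Sln and Myl4 as a covariate, 0 passed in Balb/cJ and 0 between the strains after sham. In both comparisons these atrial genes separated the groups without overlap, so the covariate can hardly be told apart from surgery or strain. In Balb/cJ the log2 differences of Ccl12 (-0.55), Ccr1 (-0.01) and Cxcl14 (0.24) changed sign. So did those of Ccl2 (-0.09) and Ccl7 (-0.29) in Balb/cByJ, and that of Cxcl14 between the strains after sham (0.05). The cause was not tested. At an adjusted p of 0.05, 3 passed in Balb/cByJ and 1 between the strains after sham. In that sham comparison 1 passed with a pseudocount of 5 and 0 with precision weights. Leaving out each library in turn gave 11 to 17 in Balb/cJ, of which 1 was lower without sham Balb/cJ 3 (Cxcl12) and 1 without TAC Balb/cJ 4 (Cxcl14), 0 to 9 in Balb/cByJ and 0 to 4 between the strains after sham. Between the strains after TAC, and for the interaction, 0 passed under every alternative run. Ccl2 in Balb/cByJ ran from -0.26 to 0.19, Cxcl12 from -0.02 to 0.28 and Ccl7 from -0.65 to 0.75, and Cxcl14 in Balb/cJ from -0.88 to 0.33, so their sign rests on single libraries.

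Over all genes, 4419 passed in Balb/cJ, 2881 at 0.05, 0 with the covariate, and 2156 to 5038 without a library. In Balb/cByJ 1765 passed, 465 at 0.05, 694 with the covariate, 2848 with only the groups compared, and 6 to 2815 without a library. Between the strains after sham 1175 passed, 568 at 0.05, 35 with the covariate, and 321 to 1653 without a library. After TAC the count was 1 (0 to 75), and for the interaction 1 (0 to 4). Rescaling to equal totals moved the median of all genes by 0.214 in Balb/cJ and 0.16 in Balb/cByJ.

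Same-numbered sham libraries of the strains deviated together at r = -0.21, -0.065 and 0.174, and pairs with unlike numbers at -0.19 to 0.249. The numbers thus showed no sign of pairing, but so few libraries cannot exclude it. With the replicate block, the sham libraries alone gave 2 of the 26 (Ccl21a and Ccr2) and 984 genes, and without it 2 (Cxcl13 and Ccr2) and 1287. No paired analysis was possible for TAC, because the TAC columns carry other numbers than the titles. Low counts limit Ccr7, Ccl19, Cxcl13, Cxcr6 and Ccl7 most.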
